A study of Mus musculus with 2 samples.

Results

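The genes described here are interferon-stimulated genes of type I interferon, a list of 42 named genes that was drawn up from what these genes are known to do and with earlier results of these data known. It also holds the receptor genes Ifnar1 and Ifnar2 and leaves out the OAS, IRF, STAT, IFITM, PYHIN, GBP and TRIM families. Of the 42 genes, 40 were found by symbol among the 34714 genes of the expression table, 37 reached 1 FPKM in at least 1 library (FPKM being fragments scaled by transcript length and library size), and 3 stayed below it in both. Mx1 and Mx2, antiviral dynamin-like GTPases, were not analysed here; RefSeq annotates both as transcribed pseudogenes on chromosome 16 of the C57BL/6J assembly.

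The samples were bone marrow-derived macrophages of C57BL/6 mice, grown from marrow in macrophage colony-stimulating factor (20 ng/mL). For 24 h they received either the CD40-activating antibody clone FGK45 or IgG as control. Each group held 1 library, so no difference below has a replicate check and none was tested. The labels do not say how many mice or cultures stand behind a library.

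Type I interferons, the interferon alpha and beta proteins, bind a receptor made of the IFNAR1 and IFNAR2 chains. Through the kinases JAK1 and TYK2 the receptor activates a transcription factor complex that holds STAT2 and IRF9 and binds the interferon-stimulated response element (ISRE) in the promoters of its target genes. The targets sense viral nucleic acid, block viral translation and replication, and attach the ubiquitin-like protein ISG15 to other proteins. Cultured macrophages are known for a low, constant output of interferon beta that keeps many of these genes on without infection.

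Because the ISRE is the element through which the complex acts, the promoters of 5 members that hold it and differ in their values are shown. Most matched members held no match in this window, as given after the sequences. RefSeq promoters (GRCm38.p6, the assembly behind mm10) were matched for 31 of the 42 genes. Each line gives the 250 bases before the annotated start, 5′ to 3′ on the gene's strand, with matches to the ISRE core in capitals. For Ifit3 and Ifit3b this start lies inside the RefSeq span of the gene, which begins further upstream. The core was searched as GAAANNGAAA on both strands, which reads TTTCNNTTTC on the other one, and overlapping matches were counted. Isg15 lies at chr4:156200819-156201068 (minus strand), Ifit1 at chr19:34640639-34640888 (plus strand), Ifit3 at chr19:34583279-34583528 (plus strand), Ifit3b at chr19:34607707-34607956 (plus strand) and Rsad2 at chr12:26456453-26456702 (minus strand).
Isg15: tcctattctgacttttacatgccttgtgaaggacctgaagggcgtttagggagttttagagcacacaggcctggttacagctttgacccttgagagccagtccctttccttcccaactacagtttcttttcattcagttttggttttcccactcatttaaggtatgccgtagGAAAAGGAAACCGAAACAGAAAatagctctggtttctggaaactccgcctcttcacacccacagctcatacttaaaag
Ifit1: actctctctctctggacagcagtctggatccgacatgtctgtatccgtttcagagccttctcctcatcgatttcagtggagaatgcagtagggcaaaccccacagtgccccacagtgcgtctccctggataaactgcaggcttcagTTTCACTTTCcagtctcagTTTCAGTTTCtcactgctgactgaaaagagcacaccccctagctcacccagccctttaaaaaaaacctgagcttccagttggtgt
Ifit3: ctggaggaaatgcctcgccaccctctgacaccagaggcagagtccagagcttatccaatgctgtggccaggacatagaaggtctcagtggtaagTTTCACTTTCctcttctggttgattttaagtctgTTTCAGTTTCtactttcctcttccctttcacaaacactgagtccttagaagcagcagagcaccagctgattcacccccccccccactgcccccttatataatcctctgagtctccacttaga
Ifit3b: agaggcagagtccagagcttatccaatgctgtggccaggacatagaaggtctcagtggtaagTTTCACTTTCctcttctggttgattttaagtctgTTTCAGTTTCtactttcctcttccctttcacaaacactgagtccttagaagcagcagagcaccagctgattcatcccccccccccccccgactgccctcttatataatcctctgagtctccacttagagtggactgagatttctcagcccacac
Rsad2: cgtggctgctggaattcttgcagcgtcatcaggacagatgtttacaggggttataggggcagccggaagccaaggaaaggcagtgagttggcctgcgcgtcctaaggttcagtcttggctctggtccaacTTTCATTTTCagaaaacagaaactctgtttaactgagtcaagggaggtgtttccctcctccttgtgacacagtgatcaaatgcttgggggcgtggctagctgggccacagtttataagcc

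Isg15 held 3 overlapping matches in a run of 22 bases, the first beginning 78 bases before the start. In Ifit1 the 2 matches began 104 and 85 bases before the start. Those of Ifit3 and Ifit3b were the same letters and had the same distance of 34 bases from the start of the first to the start of the second. These promoters shared an unbroken run of 169 bases, against 13 between Ifit3 and Ifit1. Rsad2 had 1 match, 120 bases before its start. In the full promoters of 300 bases, which also hold 50 bases after the start, 11 of the 31 matched members (35.5%) had the ISRE core in at least 1 promoter, against 3.99% of all 27025 genes with a promoter. A match is a description of these letters and does not show that a factor binds there. The gamma-activated site, searched as TTCNNNGAA, was present for 6 of the 31, or 19.4%, against 9.55% of all genes.

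All values below are FPKM in the anti-CD40 library and in the IgG library, in that order. Differences are given as log2 ratios of (FPKM + 1), anti-CD40 over IgG, a scale that understates the difference of low genes. Over the 9591 genes at 1 FPKM or more the median log2 ratio was 0.12, a shift of all genes toward anti-CD40, and this median was subtracted, so that 0 stands for the typical gene. In plain FPKM the typical gene had a ratio of 1.11. Folds in the text are ratios of FPKM, and their 95% exact binomial intervals come from approximate fragment numbers. The intervals cover counting error only, not the spread between cultures. For the members at 1 FPKM or more, the median fragment number was near 310 under anti-CD40 and 272 under IgG.

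Interferon-stimulated genes were mostly lower with anti-CD40 than the typical gene, by small amounts, and a few members stood well below the rest. Of the 37 members at 1 FPKM or more, 30 lay below the median of all genes and 7 above it, where 50% of all genes lie below by definition. Their median log2 ratio was -0.15 against 0 for all genes, with quartiles of -0.29 and -0.03. In plain FPKM, before the shift of all genes is taken into account, 22 members had the higher value with IgG and 15 with anti-CD40. The direction of the typical member therefore depends on the scaling, and the members' median was 0.0042 once the libraries were brought to equal sums, when that of all genes was 0.16. In these bulk samples, fewer cells that express a gene and less RNA per cell cannot be told apart.

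At least 1.5-fold below the typical gene were 4 of the 37 members (Ifi27l2a, Ifi35, Usp18 and Xaf1), and 4.23% of all genes met the same criterion. Short transcripts met it more often. All 4 members have transcripts of 463 to 1771 bases. Among all genes of 114 to 1384.5 bases the share was 8.79%, and from 1385 to 2081 bases it was 5.31%. It was 1.61% among the longest, from 4094 bases upward. None of the 37 was 1.5-fold above, where 1.23% of all genes were. At 1.2-fold, 11 members were lower, against a background of 18.1%, and none was higher, against 11.5%. Xaf1, at -0.61, was the member just past 1.5-fold, and Ifi27, at -0.44, the nearest on the other side. Counting intervals of the FPKM ratio lay wholly below the typical ratio for 15 of the 37. The share was 25.2% among the 9321 genes at 1 FPKM or more that had a transcript length. The intervals lay wholly above the typical ratio for 1 member (Ifnar2), against 20.3% of the same 9321 genes. No statement about chance follows from these counts, since members share regulators and each group is 1 library.

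Transcripts of hepatocytes, a cell type foreign to these cultures, also differed between the libraries. A list of 12 such genes, drawn up after their values were seen, summed to 22.9 FPKM with anti-CD40 and 51.7 with IgG. All 12 were detected in both libraries. Of the 8 at 1 FPKM or more, 8 lay below the typical gene, where 50% of all genes lie below by definition. At least 1.5-fold lower were 7, against 4.23% of all genes. These counts follow in part from choosing the list with its values in view, so they test nothing. Alb, the gene of serum albumin, had 9.56 against 21.1 FPKM, and the apolipoprotein gene Apoa2 had 6.15 against 13.9. Their log2 ratios of -1.19 and -1.18 were below that of any member, the lowest of which was Ifi27l2a at -1.05. The part of these transcripts in the members' values was not tested.

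**Figure D1:**
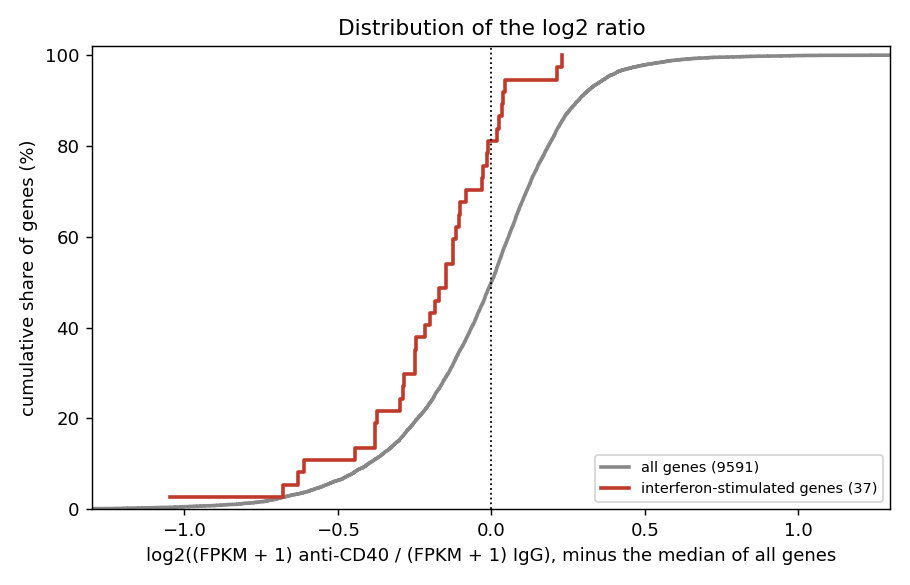
Cumulative share of genes (vertical axis, percent) by log2 ratio of (FPKM + 1), anti-CD40 over IgG, minus the median of all genes (horizontal axis), for 9591 genes and 37 interferon-stimulated genes. The members' curve lies to the left of that of all genes over most of its range, starts with Ifi27l2a at -1.05 and ends at 0.23 with Ifnar2.

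Levels ranged from 0.126 FPKM (Ifit1bl1) to 288 FPKM (Ifi27). Ifi27 was the most abundant member in both libraries, Ifi27l2a the next, and Ifit1bl1 the least. Ifi27 and Ifi27l2a together made up 43.5% of the summed FPKM of all members with anti-CD40 and 51.9% with IgG. The sum over the 40 members was 761 against 926 FPKM, a ratio of 0.822, and without those 2 genes it was 430 against 446, a ratio of 0.964. The plot of levels shows each member in both libraries, grouped by role.

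**Figure D2:**
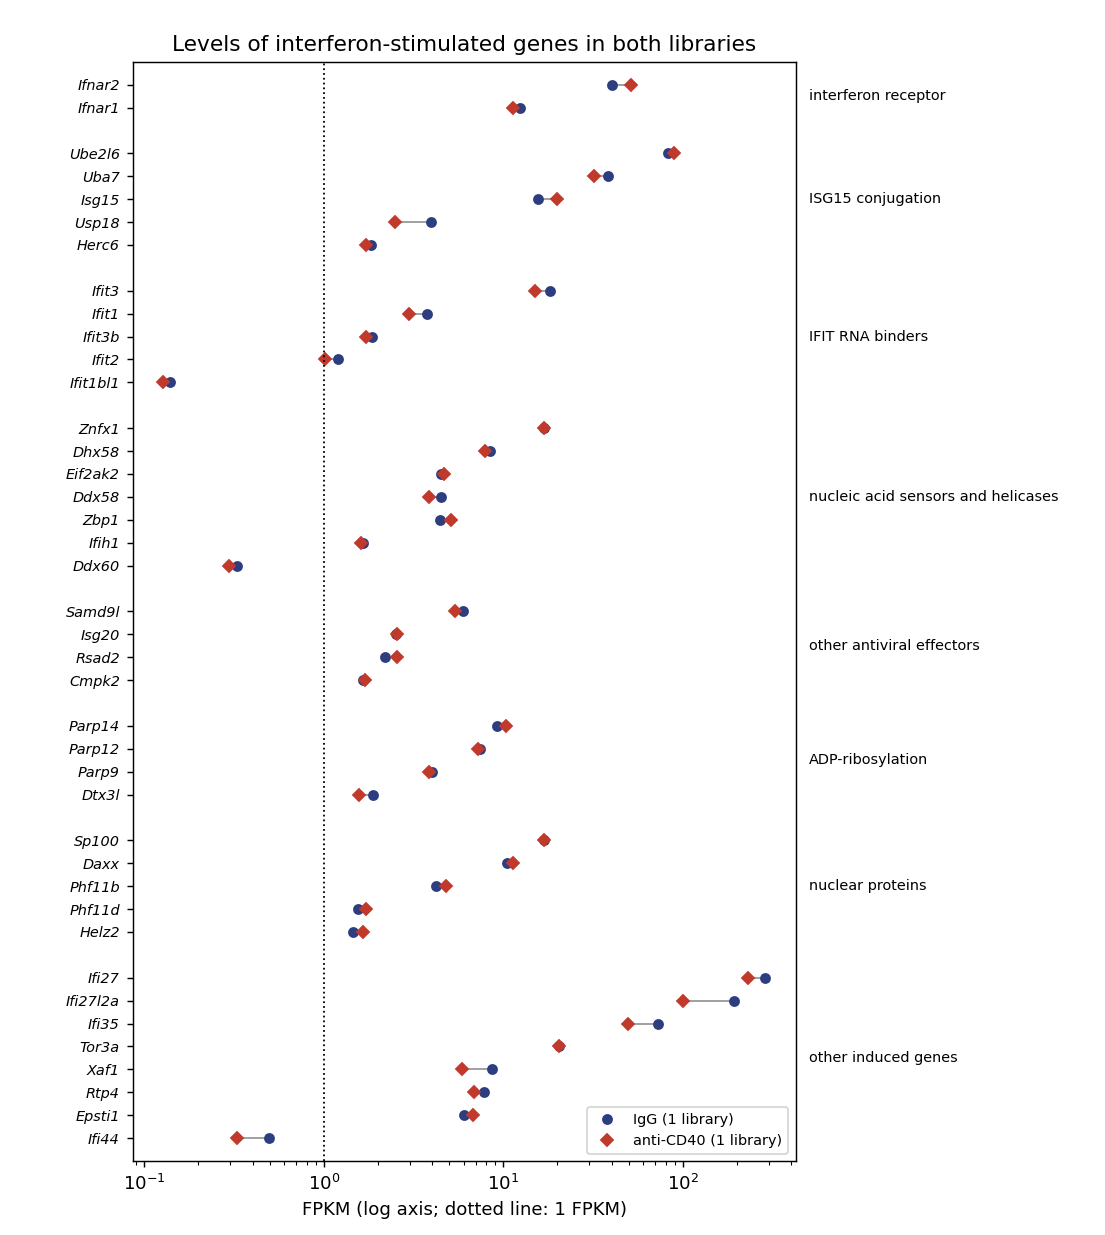
FPKM (horizontal log axis) of the 40 members in the anti-CD40 library (red diamonds) and the IgG library (blue circles), 1 library each, grouped by role; grey lines join the values of a gene. Ifi27l2a, Ifi35, Xaf1 and Usp18 have visibly separate symbols, whereas those of Znfx1, Tor3a and Sp100 coincide.

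The receptor chains were on opposite sides of the typical gene. Ifnar2, the chain that binds interferon most tightly (chromosome 16, 91372783 to 91405589), had 51.4 FPKM under anti-CD40 and 40.1 under IgG. Its ratio was 1.28, with an interval from 1.21 to 1.36, and its log2 ratio of 0.23 was the highest of the 37. Ifnar1, its neighbour on the same chromosome (91485032 to 91510523), had 11.3 and 12.4 FPKM, a ratio of 0.911 with an interval from 0.822 to 1.01. Ifnar2 was the more abundant chain in both libraries. About 9.46% of the exonic bases of Ifnar2 in GENCODE also belong to the model gene Gm21970, and reads there cannot be assigned with certainty.

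The ISG15 system had members on both sides. Isg15 itself, the ubiquitin-like modifier (chromosome 4, 156199424 to 156200818), was higher with anti-CD40, at 20.0 against 15.6 FPKM. The ratio of 1.28 had an interval from 1.07 to 1.53 on about 310 and 219 fragments, so that counting error reaches below the typical ratio of 1.11. Uba7, the enzyme that activates ISG15, had 31.9 against 38.3 FPKM, a ratio of 0.832 with an interval from 0.784 to 0.883. Ube2l6, the enzyme that carries it on, had 88.7 against 82.1, close to the typical ratio. Herc6, the ligase that attaches ISG15 in mice, had 1.72 against 1.84, and 17.9% of its windows of 150 bases and 13.7% of its exonic bases are shared with the model gene Gm45193.

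Usp18, the protease that removes ISG15 and also damps signalling at IFNAR2, was the lowest of this group (chromosome 6, 121245906 to 121270917). It had 2.49 FPKM under anti-CD40 and 3.95 under IgG, 1.59-fold lower (interval 1.21 to 2.11) on about 90 and 130 fragments. Its log2 ratio was -0.63 relative to the typical gene. The modifier and its protease thus lay on opposite sides of the typical gene in the same pair of libraries. Summed over the 5 genes, the ISG15 system had 145 against 142 FPKM.

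All 4 IFIT genes at 1 FPKM or more were lower with anti-CD40, in every setting that measured them. Of the IFIT proteins, IFIT1 binds RNA whose ends lack host methylation and blocks its translation. The IFIT genes lie side by side on chromosome 19. Ifit3 (34583119 to 34588982) had 15.1 against 18.1 FPKM, a ratio of 0.832 with an interval from 0.739 to 0.938. Ifit1 (34640889 to 34650009) had 2.97 against 3.74, a ratio of 0.794 with an interval from 0.638 to 0.984. Ifit2 had 1.02 against 1.20 FPKM and Ifit3b 1.71 against 1.86, and both intervals reach above 1.

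Ifit3 and Ifit3b share stretches of their transcripts as well as of their promoters above. Of all windows of 150 bases in the longest coding transcript of Ifit3, 18.5% occur without a mismatch in Ifit3b, so that reads there can be counted for either gene. Their sum was 16.8 against 20.0 FPKM, a ratio of 0.84, which differs little from that of Ifit3 alone. Ifit1bl1, an IFIT1-like gene whose RefSeq locus spans both Ifit3b and Ifit1, stayed low at 0.126 against 0.138 FPKM, or about 6 fragments in each library.

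Nucleic acid sensors were close to equal in plain FPKM. Ddx58, the gene of the RNA sensor RIG-I (chromosome 4, 40203777 to 40239825), had 3.85 against 4.47 FPKM, a ratio of 0.861 with an interval from 0.733 to 1.01. Dhx58, which encodes the related protein LGP2, had 7.87 against 8.47, and Ifih1, the gene of the long RNA sensor MDA5, had 1.61 against 1.65. The 3 RIG-I-like receptors therefore all had values under the typical ratio of 1.11, although the interval of Ifih1, from 0.765 to 1.23, includes it.

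Eif2ak2, the gene of the RNA-activated kinase PKR that halts translation, had 4.65 against 4.49 FPKM. Znfx1, a helicase-like RNA sensor at mitochondria, had 16.7 and 16.8, with an interval of the ratio from 0.935 to 1.06. Zbp1, a sensor of Z-form nucleic acid that can trigger cell death, was the sensor above the typical gene, at 5.08 against 4.41 FPKM with an interval from 0.895 to 1.49. Its log2 ratio was 0.05, and above 0 under each of the settings tried. Ddx60, a helicase, was below 1 FPKM in both libraries, at 0.294 and 0.328.

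Antiviral effectors included neighbours that face away from each other. Rsad2, which encodes viperin, the enzyme that makes a chain-terminating nucleotide, had 2.54 FPKM under anti-CD40 and 2.18 under IgG. Cmpk2, a nucleotide kinase next to it on chromosome 12, had 1.69 against 1.65. The intervals, 0.939 to 1.45 and 0.774 to 1.36, both include equality and the typical ratio. Isg20, an RNA exonuclease, had 2.56 against 2.52 FPKM on about 44 and 40 fragments. Samd9l, a cytoplasmic inhibitor of viral translation, had 5.38 against 5.96 with an interval of the ratio from 0.803 to 1.01.

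Among ADP-ribosylation genes, the PARP family members and the ligase that partners Parp9 split by gene. Parp14 had 10.4 against 9.20 FPKM, a ratio of 1.13 with an interval from 1.05 to 1.22 around the typical 1.11. Parp12 had 7.26 against 7.41 and Parp9 had 3.85 against 4.01. Dtx3l, the ubiquitin ligase that forms a complex with PARP9, had 1.57 against 1.87, a ratio of 0.837 with an interval from 0.655 to 1.08. The exons of Parp9 and Dtx3l overlap by 458 bases on opposite strands, and the strand setting is not given in the sources used here, so reads in that stretch cannot be told apart.

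Nuclear proteins lay close to the typical gene as a group, with a median log2 ratio of -0.03. Sp100 and Daxx, components of PML nuclear bodies, had 16.9 against 16.8 and 11.3 against 10.5 FPKM. Helz2, a helicase and nuclear receptor coactivator, had 1.64 against 1.45. The PHD finger genes Phf11b and Phf11d, neighbours on chromosome 14, had 4.76 against 4.22 and 1.72 against 1.55. All 5 of these genes were found on both sides of 0 across the settings tried.

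The remaining induced genes held 3 of the 4 members that were at least 1.5-fold below the typical gene. Ifi27l2a, a small hydrophobic membrane protein gene of the ISG12 family (chromosome 12, 103433873 to 103443680), had 101 FPKM under anti-CD40 and 192 under IgG. That is 1.91-fold lower (interval 1.76 to 2.07). Its log2 ratio of -1.05 relative to the typical gene ranked 41 from the lowest among 9591 genes. Ifi27l2a was the 1 member at least 2-fold below the typical gene, where 0.563% of all genes were. Its transcript is short, at 463 bases, and scaling by length is less certain for short transcripts.

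Ifi27, another gene of that family (103434189 to 103440245), lies within the RefSeq span of Ifi27l2a. It had 230 against 288 FPKM, 1.25-fold lower (interval 1.20 to 1.30). Summed, the pair had 331 against 480 FPKM and was 1.45-fold lower. In GENCODE they share no exonic base and no window of 150 bases.

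Ifi35, a leucine zipper protein gene that also modulates innate signalling (chromosome 11, 101448412 to 101458701), had 49.4 FPKM under anti-CD40 and 73.1 under IgG. It was 1.48-fold lower (interval 1.38 to 1.59), and its log2 ratio was -0.68. About 16.8% of its exonic bases overlap the antisense model gene Gm11626. Xaf1, the gene of a pro-apoptotic partner of the caspase inhibitor XIAP on the same chromosome (72301461 to 72313733), had 5.90 against 8.68 FPKM, 1.47-fold lower (interval 1.22 to 1.78).

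The other genes of the group at 1 FPKM or more were closer to equal. Rtp4, a transporter of G protein-coupled receptors, had 6.86 against 7.81 FPKM, and 13.9% of its exonic bases also belong to the model gene Gm45338. Tor3a, a torsin ATPase gene, had 20.3 against 20.4, and Epsti1 had 6.77 against 6.02. Ifi44 was below 1 FPKM in both libraries, at 0.326 against 0.495 on about 19 and 27 fragments, a ratio of 0.658 whose interval ran from 0.335 to 1.19. Exonic overlap with genes on either strand was at most 4.44% (Usp18, with Gm44148) for the members whose overlap is not given above.

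**Figure D3:**
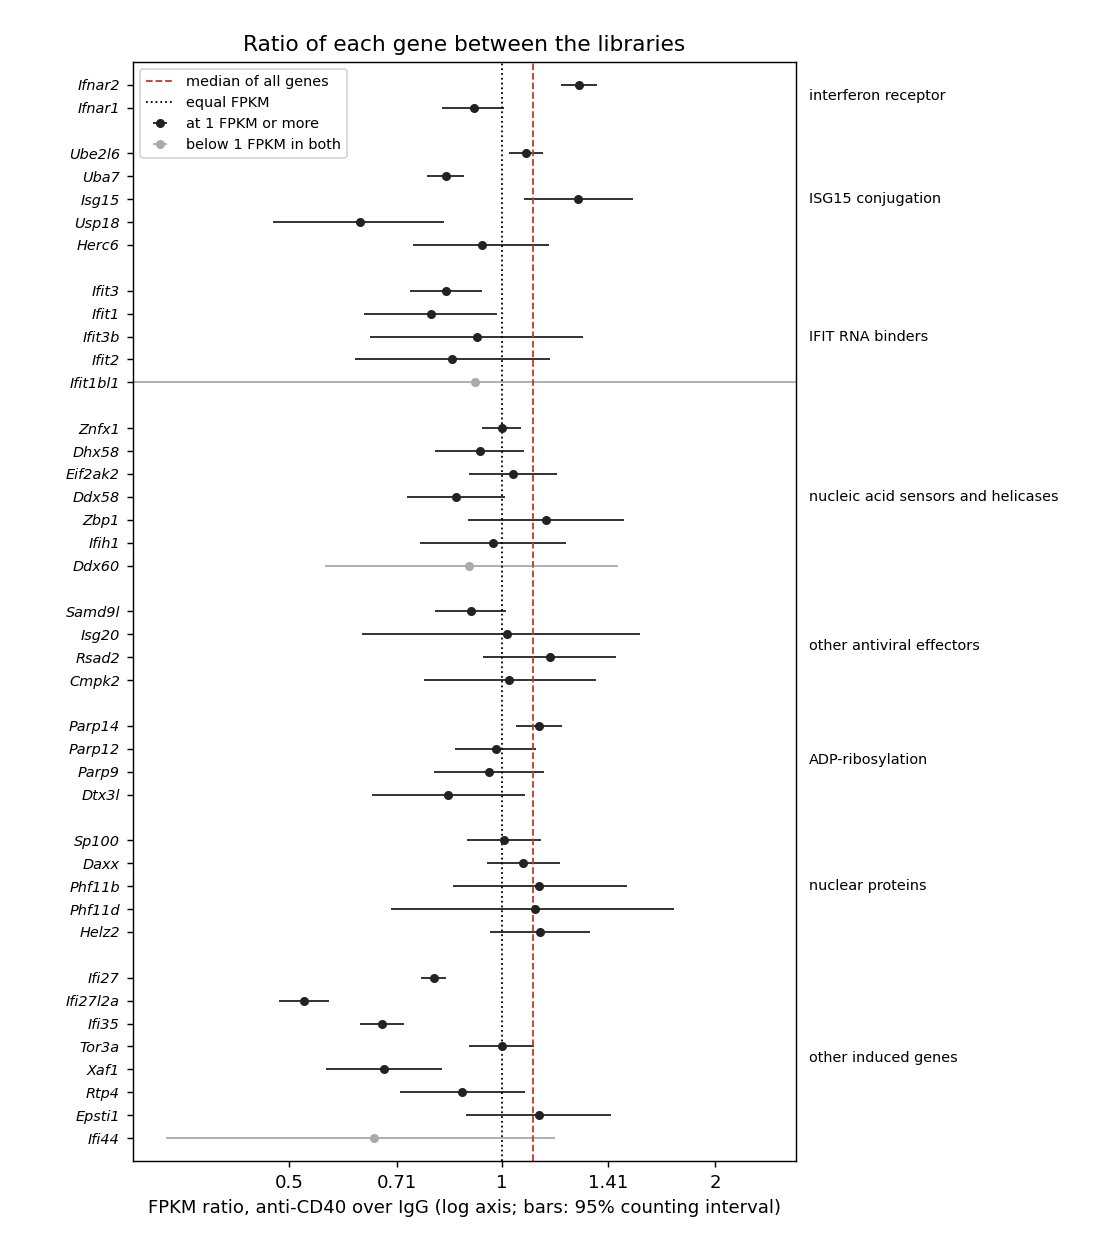
Ratio of FPKM, anti-CD40 over IgG (horizontal log axis), of the 40 members by role; bars are 95% counting intervals, the dotted line is equality and the dashed line the typical gene at 1.11. The intervals of Ifi27l2a, Ifi35, Xaf1, Usp18, Ifi27, Uba7, Ifit3 and Ifit1 lie below equality, and the intervals of Isg15, Ifnar2, Parp14 and Ube2l6 above it.

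Across the scalings, pseudocounts, filters and corrections tried, 18 of the 37 members lay below 0 in every setting that gave them a value, where 27.4% of all genes did. Above 0 in every setting were 3 members, against a background of 43.5%, and 16 were found on both sides. Of the 18, 10 had a value in all 11 settings and 8 did not, since members under 5 FPKM have none at the stricter minimum. The 3 were Ifnar2, Isg15 and Zbp1. Among the 18 were the 4 IFIT genes, Ddx58 and Dhx58, Uba7, Herc6 and Usp18, Ifi27 and Ifi27l2a, Ifi35, Xaf1 and Rtp4.

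Lower members were not limited to low or high levels. The 13 members with a mean of at least 10 FPKM had a median log2 ratio of -0.13, and the other 24 had -0.16. The 9 members at 1 FPKM or more with an ISRE match in a promoter had a median of -0.15, with 6 of them below the typical gene, and the 19 with a promoter but no match had -0.13, with 17 below. Isg15, which holds 3 matches, had a log2 ratio of 0.21, next to that of Ifnar2 at the top. Over all 309 genes at 1 FPKM or more with a match, the median was -0.00057.

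Transcript GC content moved with the ratio over all genes, so its values are given for the members too. All genes were put into 5 bins of equal size, and from the lowest to the highest GC content the median log2 ratio of all genes was 0.04, 0.05, 0.02, -0.04 and -0.11. In the same bins the members' medians were -0.15, -0.24, -0.13, -0.17 and -0.06, over 9, 10, 8, 8 and 2 genes. Members thus lay lower than all genes within each of the first 4 bins, and in the highest bin, with 2 members, they did not. With the trend on GC content removed, 32 of the 37 members lay below the median and their median was -0.18.

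**Figure D4:**
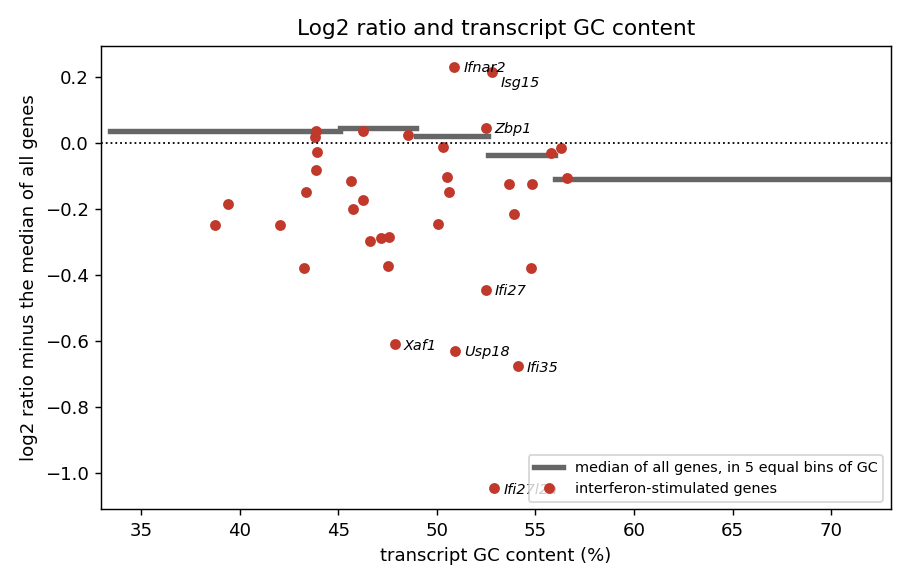
Log2 ratio minus the median of all genes (vertical axis) by transcript GC content in percent (horizontal axis) for the 37 members (red points); grey bars are the median of all genes in each of 5 equal bins of GC content. Most points lie under the grey bars on the left, where the medians of all genes are 0.04 and 0.05, and the 4 lowest members have GC contents between 47.9% and 54.1%.

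Genes that make or transmit the signal were read from lists of the pathway. Of 19 type I and type III interferon ligand genes, 18 were listed at 0 under both treatments. An exact 0 can stand for a failed estimate. Ifnb1, the gene of interferon beta, had 0.0514 FPKM under anti-CD40 and 0.0638 under IgG, too few fragments to compare. Ifng was listed at 0 in both, and its receptor genes Ifngr1 and Ifngr2 had 35.8 against 29.7 and 44.2 against 33.1 FPKM.

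Of the 4 genes just below the receptor, 2 lay above the typical gene and 2 below. Both above were kinase genes: Tyk2 had 11.5 against 8.43 FPKM, and Jak1 had 14.8 against 11.9 with an interval of the ratio from 1.15 to 1.35. Stat2 had 9.86 against 10.7, and Irf9, the DNA-binding part of the complex, 13.4 against 15.4 with an interval of the ratio from 0.783 to 0.970. The receptor's kinase genes and these genes of the ISRE-binding complex were thus on opposite sides of the typical gene.

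Among 13 measured genes that drive interferon production, 7 lay below the typical gene and 6 above, where 50% of all genes lie below by definition. At least 1.5-fold below the typical gene was 1 of the 13, against 4.23% of all genes. That was Irf7, an interferon-induced factor that amplifies interferon alpha genes, at 15.7 against 25.5 FPKM, 1.62-fold lower (interval 1.46 to 1.80). The kinase gene Ikbke had 71.3 against 88.8. On the other side were the adaptor genes Mavs, at 5.53 against 3.60 FPKM, and Traf3, at 3.08 against 2.23. Of 8 feedback regulators, 7 lay above the typical gene, with Socs3 at 5.13 against 2.81 FPKM and the phosphatase gene Ptpn2 at 5.74 against 3.93. Pias1, a SUMO ligase gene, was the 1 below, at 5.98 against 5.61. Ptpn6 had 119 against 109 and lay next to the typical gene, with a log2 ratio of 0.01.

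The label of the cells was checked against markers. All 9 macrophage markers exceeded 1 FPKM, with sums of 15223 FPKM (anti-CD40) and 12926 (IgG). Most of both sums came from Lyz2, at 13423 and 11326 FPKM. Of the 9, 7 lay above the typical gene and 2 below (Csf1r and Fcgr1), where 50% of all genes lie below by definition. Apart from the hepatocyte list given above, each of the 7 lists for other cells summed to less than 3 FPKM in both libraries. Plasmacytoid dendritic cells are the cell type best known for making type I interferon. Their list had 2.50 against 2.65 FPKM, but its genes went both ways. Most of the sum came from Cox6a2, at 1.45 against 2.49, and Siglech had 0.0558 and 0.162. Ly6d went the other way, at 0.976 against 0. The fibroblast marker Col1a1 was also higher with anti-CD40, at 0.406 against 0.0319. Of 6 markers of T and NK cells 5 were at 0 in both libraries, as were 5 of 8 neutrophil markers. Their part in the members' values was not tested. By steps in the deposited values, the libraries held about 6.16 (anti-CD40) and 5.58 (IgG) gigabases of aligned sequence.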

How the data were processed

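Per the labels' protocols, libraries were made from 1.3 ug of TRIzol-extracted RNA with a TruSeq kit. HISAT2 2.1.0, StringTie and mm10 appear in the submitters' processing notes. Gene annotation, strand setting and read length were not given in the sources used here. From the authors comes 1 deposited table whose unit is not named and which was read as FPKM, from StringTie and from column sums that differ (529104 with anti-CD40, 547362 with IgG). Columns were assigned by name, and 0 were left unused.

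All 34714 symbols matched RefSeq (GRCm38.p6), which gave coordinates and promoters. GENCODE M21 gave transcript length (the median of coding transcripts), GC content and exons. The main measure used a pseudocount of 1 FPKM, a minimum of 1 FPKM in either library and centring on the median of all genes. Calls were at 1.5-fold, and 1.2-fold and 2-fold are given beside them. With 1 library per group no test was run.

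Depth came from single-exon genes. FPKM times length were whole multiples of a step (tolerance 0.05) for 76.9% of 91 low genes with anti-CD40 and 88.1% of 59 with IgG. With shuffled lengths the share was at most 26.0% and 31.8%. The shuffles were searched over a coarser set of steps than the data, which could lower these shares. With a step read as 0.5 of an aligned base, the frequent multiples of 300 and 600 are a read of 150 bases and a read pair with 300 aligned bases. That gives 20.5 and 18.6 fragments per FPKM and kilobase, and 95% exact conditional binomial intervals on them cover counting error only. These rest on that reading and on an assumed length per gene.

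Members and lists were chosen with earlier results of these data known. All members are named. From each pathway list the genes named are those at 1 FPKM or more with the highest and the lowest log2 ratios, up to 2 at each end, and the others enter the counts without a name. Left out of both is 1 gene that is not reported here. The hepatocyte list was added after its values were seen. Alternatives were pseudocounts of 0.1 and 5, no centring, rescaling to column sums or upper quartiles, and no filter or a minimum of 5 FPKM. Another alternative summed the pairs Ifit3 with Ifit3b and Phf11b with Phf11d. Removing trends on GC content or transcript length (lowess span 0.3) was chosen after seeing the data. Python 3.11.15, pandas 2.3.3, scipy 1.17.1 and statsmodels 0.14.6 were used.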

Additional observations from a re-analysis of the deposited data

How the results depend on the processing

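Each of 4 summaries of the members was recomputed under 10 alternatives. Of these 40 values, 30 stayed close to the reported one (within 1.5 times for a count, within 0.05 for the median). The 30 include every value for members at least 1.5-fold higher, which never changed. They also include 22 of 37 below 0 without centring, where 32.2% of all genes were below 0, beside the reported 30 of 37. The median log2 ratio of -0.15 became -0.0261 without centring, -0.0611 without a filter and -0.0848 with a pseudocount of 5, and turned to 0.0042 after rescaling to column sums. Its distance from the median of all genes was -0.15 without centring and -0.16 after that rescaling, since all genes shift as well. The number below the median of all genes, 30 of 37, became 18 of 37 after rescaling to column sums, where 27.4% of all genes were below 0, and 16 of 21 with a minimum of 5 FPKM, which tests fewer genes. The number at least 1.5-fold lower, 4, became 1 without centring, without a filter and after rescaling to column sums, and 2 with a pseudocount of 5. It was 4 with either trend removed. No member was 1.5-fold higher in any of these settings. No paired analysis was possible because each group held 1 library. For members with few fragments, depth limits what can be read. Isg20, with a transcript length of 845 bases, had 44 and 40 fragments, and its interval ran from 0.634 to 1.57.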
